A study of Mus musculus with 12 samples.

Results

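The 84 genes described here are named as genes of the proteins of the cytosolic ribosome or as paralogs and retrogenes of these. They were chosen by name among the protein_coding genes of the annotation: symbols that begin with Rpl or Rps and a digit, together with Rplp0, Rplp1, Rplp2 and Rpsa, without the Rps6k kinases, Rps19bp1 and pseudogenes, and with at least 10 counts in 3 or more libraries. The name rule alone found 89 genes among the 40551 gene identifiers counted, and 5 of these stayed under the count minimum. Of the 84, 50 were assigned to the large (60S) subunit and 34 to the small (40S) subunit, by symbol alone. They lie on 19 chromosomes, with 4 on the X chromosome.

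Each cytosolic ribosome holds 1 copy of most of these proteins, arranged on ribosomal RNA, and a cell draws them from unlinked genes that are usually transcribed and translated in proportion. Their mRNAs carry a run of pyrimidines at the cap, the 5′ terminal oligopyrimidine (TOP) tract, through which mTOR signalling controls their translation. In liver, the source of most plasma proteins, they are among the most strongly transcribed housekeeping genes.

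Total RNA of 12 mouse livers was sequenced, 3 for each of 4 genotypes. WT livers were labelled wild type. Mcl1Δhep livers (labelled Mcl1 KO) lacked Mcl1, which encodes a BCL2-family survival protein, in cells in which the albumin promoter drove Cre against floxed Mcl1 alleles. The study describes this as deletion in hepatocytes and found the remaining MCL1 staining almost only in nonparenchymal cells. Sting1-/- livers (labelled Sting1 KO) carried the germline knockout of Sting1, the adaptor of cytosolic DNA sensing, and Mcl1Δhep Sting1-/- livers (labelled Mcl1 Sting1 DKO) carried both. The labels name no treatment, strain or age, and do not say whether same-numbered livers share a litter, so that the p-values given here measure the spread between these livers.

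Library totals ranged from 28826367 to 45266387 counts on genes. CPM are counts in 1000000, scaled by TMM library factors here and below except for Y-linked genes, where library totals alone were used. Mcl1 was at 90.2 to 104 CPM in WT, 78.3 to 90.1 in Sting1-/-, 25.0 to 34.0 in Mcl1Δhep and 18.1 to 26.0 in Mcl1Δhep Sting1-/- livers, without overlap between the floxed and the other genotypes. Sting1 ranged from 1.16 to 2.70 CPM in Sting1-/- livers and from 2.11 to 2.53 in WT livers. The part of the gene that the Sting1 allele changes is not given in the sources used here, so counts over the whole gene do not check that label, and the Sting1 genotypes below are those of the labels. A list of 10 hepatocyte genes summed to between 101014 and 165611 CPM in the 12 livers. Y-linked genes were at 142 to 147 CPM in WT replicates 2 and 3 and Mcl1Δhep Sting1-/- replicate 1 and at most at 0.201 CPM in the 9 others, so that among WT, Mcl1Δhep and Sting1-/- livers only WT held them. Mcl1Δhep replicate 3 also held skeletal muscle transcripts, at 1563 CPM over 9 genes, against at most 9.14 CPM in any other liver. Each library is a whole piece of liver, in which fewer cells of a type and less RNA per cell cannot be told apart.

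To describe the starts of these genes, a pyrimidine tract was searched on the transcribed strand within 50 bases of the annotated start of the canonical transcript of each gene, which can lie inside the gene's outer bounds, defined as a C followed by at least 7 bases that are C or T. It was found in 47 of the 84 members (56%) and in 30.9% of all protein_coding genes tested, of which there were 13664. The other 37 members, Rps3a1 and Rpl30 among them, held no tract of that length in the window. Windows of 30 bases are printed for members with a tract that the results below turn on, with the tract in capitals, from the GRCm39 genome at GENCODE vM39 starts: Rpl41 (minus strand, chr10:128384978-128385007) and Rpl13a (minus strand, chr7:44778148-44778177), high in the same livers, Rpl4 (plus strand, chr9:64080642-64080671) and Rps4l (plus strand, chr6:148256054-148256083), low in Mcl1Δhep livers, and the paralogs Rps27 (minus strand, chr3:90120938-90120967) and Rps27l (plus strand, chr9:66853336-66853365).
Rpl41: tagcagtaggCCTCCCTCTCCgccctctcg
Rpl13a: tgcgacaagaCCTCCTCCTTTCCCaggcgg
Rpl4: agtgacaagtCTTTCCTTTTCCTgtgggag
Rps4l: gctcctccggCCTCCCTCCaacagatggcg
Rps27: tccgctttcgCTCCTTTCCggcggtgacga
Rps27l: cccgcctccaCTCCTCTCCactcctccccg
The tract of Rpl41, the member with the highest fitted change in Mcl1Δhep livers, was 11 bases long and began 25 bases after the annotated start. That of Rpl4, one of the few members with a negative change, was 13 bases long and began 34 bases after it. Members with the tract had the same median log2 change as members without it, 0.32 and 0.32 for Mcl1Δhep against WT. A tract in this window is a match of letters and not a mapped cap site.

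In terms of level, the members differed from each other by far more than any genotype moved them. Levels between genes were compared as TPM (counts divided by the length of the canonical transcript and scaled to a sum of 1000000), and the median member stood at 285 TPM. The 6 highest by mean over the 12 livers were Rplp1, of the acidic stalk, at 1211 TPM, Rps12 at 887, Rps18 at 769.8, Rps14 at 758, Rpl13a at 723 and Rps2 at 707. Neighbours in this order overlapped between livers, with Rplp1 from 999 to 1534 TPM, Rps12 from 639 to 1494 and Rps2 from 621 to 793, so the order is that of the means only. The 4 lowest were Rpl35rt at 1.43 TPM, Rps23rg1 at 3.29, Rps4l at 25.0 and Rpl29 at 32.5, and of these only Rpl29 is the standard gene of its protein. The order depends on the length used: with the summed length of all annotated exons, which counts retained introns, Rps12 ranked 19 and Rps14 ranked 25. Counts per member and library ran from 3 (Rpl35rt) to 25682, and the other members with low counts were Rps23rg1, with at least 42, and Rps4l, with at least 306.

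The members took a similar share of all gene counts in every WT liver, 1.13, 1.13 and 1.17% for replicates 1 to 3. The Mcl1Δhep livers stood at 1.14, 2.18 and 1.67%, the Mcl1Δhep Sting1-/- livers at 1.22, 1.13 and 1.25%, and the Sting1-/- livers at 1.25, 1.05 and 1.47%. The mean was 1.14% ± 0.02 (SD, n = 3) in WT, 1.66% ± 0.52 in Mcl1Δhep, 1.198% ± 0.06 in Mcl1Δhep Sting1-/- and 1.26% ± 0.21 in Sting1-/- livers. Thus 2 of 3 Mcl1Δhep livers and 1 Sting1-/- liver were high, while Mcl1Δhep replicate 1 lay inside the WT range. In the same libraries the share of counts on genes of small structured RNAs (annotated snoRNA, snRNA, 7SK- and 7SL-type RNAs and the like) was also high: 2.37% in Mcl1Δhep replicate 2, 1.36% in Mcl1Δhep replicate 3 and 0.897% in Sting1-/- replicate 3, against 0.172 to 0.563% in the 9 others. Counts on the mitochondrial genome were lowest in the same pair of Mcl1Δhep livers, at 0.580 and 0.565%, against 1.05 to 1.63% in the 10 others. The part of these library properties in the level of ribosomal protein mRNAs was not tested beyond the fits with the small RNA share as a covariate and without those libraries, given below.

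**Figure D1:**
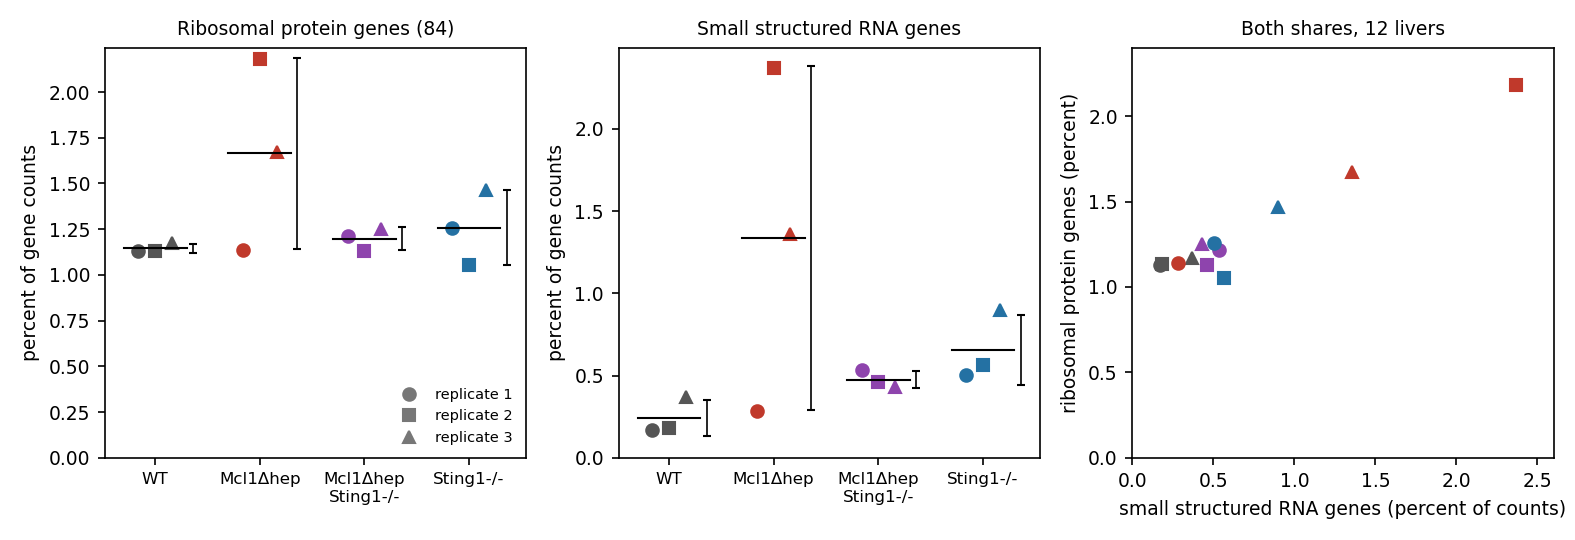
Share of gene counts on the 84 ribosomal protein genes (left), on small structured RNA genes (middle) and both against each other (right), in percent, for 12 livers, with symbols for the replicate number, colours for the genotype as in the left plot, a line at the mean and a bar of 1 SD. Mcl1Δhep replicates 2 and 3 and Sting1-/- replicate 3 are highest in both shares, at 2.18, 1.67 and 1.47% for ribosomal protein genes.

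The share was not carried by a few strong genes. The log2 ratio of each member to its WT mean had a median over the 84 of -0.19, 0.62 and 0.36 in Mcl1Δhep replicates 1 to 3, of -0.05, -0.18 and 0.07 in Mcl1Δhep Sting1-/- livers, and of 0.15, -0.12 and 0.29 in Sting1-/- livers. In Mcl1Δhep replicate 2, 79 of 84 members lay above the highest WT liver and 4 below the lowest (38.0 and 38.8% of all 15070 genes tested did so), and in replicate 3 the counts were 72 and 4 (34.0 and 37.8% of all). In Mcl1Δhep replicate 1 the picture was turned around, with 3 members above and 68 below (32.9 and 33.9% of all). The Mcl1Δhep Sting1-/- livers had 14, 3 and 41 members above (29.1, 27.0 and 29.6% of all) and 37, 70 and 6 below (30.7, 30.0 and 29.5%). The Sting1-/- livers had 67, 2 and 75 above (22.5, 27.0 and 28.0% of all) and 2, 66 and 1 below (22.9, 23.0 and 25.7%). So in each Mcl1Δhep and Sting1-/- liver most members lay outside the WT range on 1 side, up in some livers and down in others. Among Mcl1Δhep Sting1-/- livers this held for replicate 2, with 70 below. Within WT, 50 members of replicate 1 lay below the other 2 WT livers (37.0% of all genes). In WT replicate 3, 43 lay above the other 2 (32.7%).

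**Figure D2:**
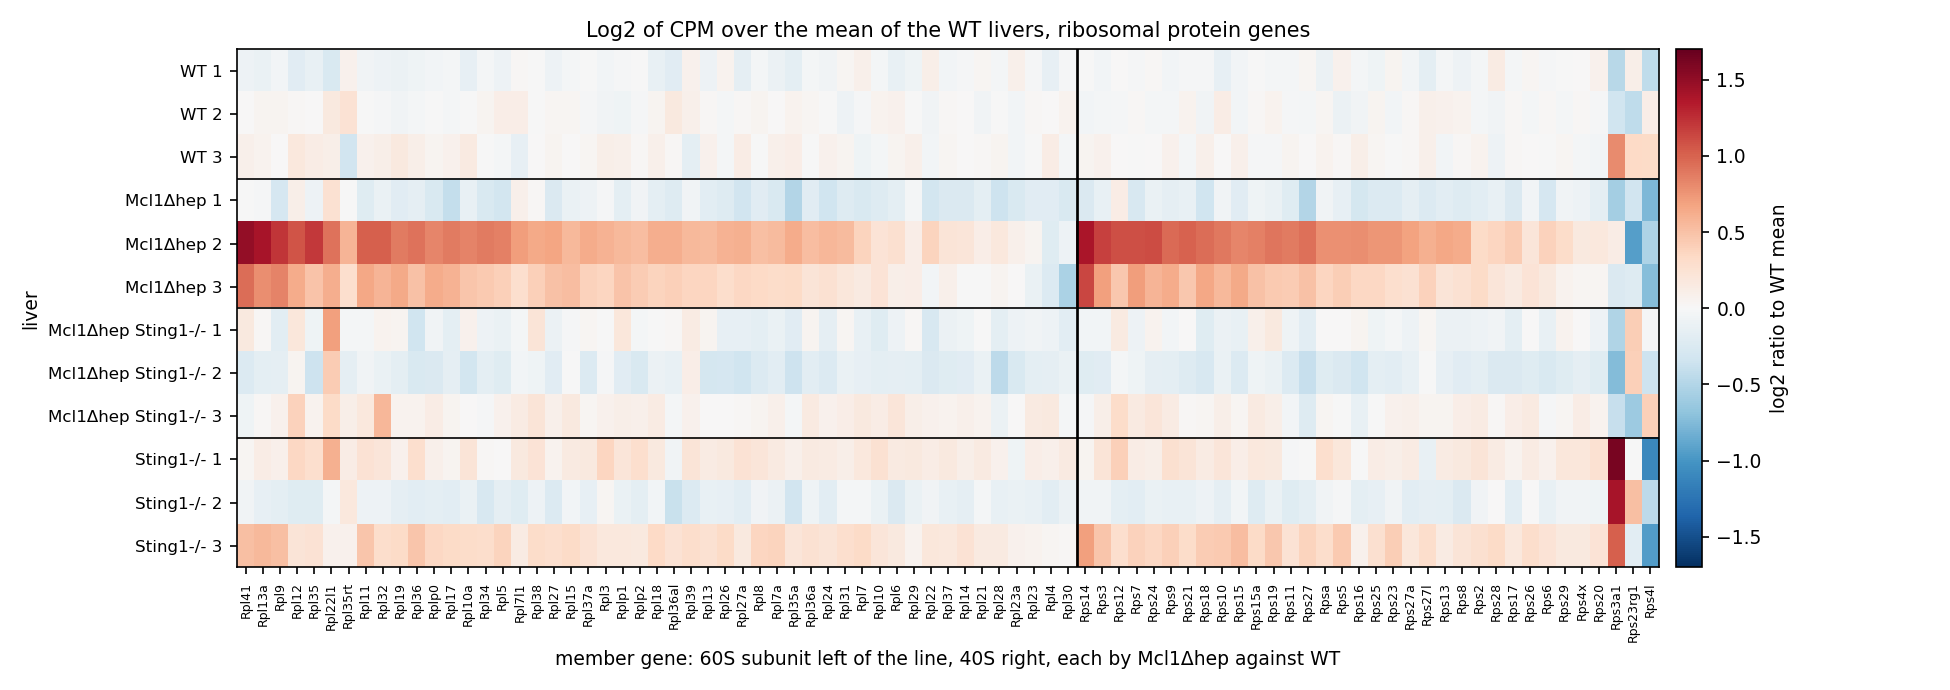
Log2 ratio of CPM to the mean of the 3 WT livers for 83 of the 84 members (columns, 60S left and 40S right of the line, each ordered by the fitted change in Mcl1Δhep against WT) in each liver (rows). Mcl1Δhep replicates 2 and 3 are red over nearly all columns, with medians of 0.62 and 0.36, while replicate 1 is pale blue with a median of -0.19, and Rps3a1, Rps23rg1 and Rps4l at the right end do not follow the other members.

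The first comparison asked how ribosomal protein mRNAs differ in a liver whose hepatocytes lack Mcl1. In Mcl1Δhep against WT livers, 74 of 84 members had a positive fitted log2 fold change, with a median of 0.32 against -0.0049 over all genes, but 1 member was called at an adjusted p under 0.05 (edgeR's quasi-likelihood test, Benjamini-Hochberg over 15070 genes), where 20.2% of all genes were called and 10.8% were called higher. At an unadjusted p under 0.05 there were 20 members, 19 of them higher, against 36.9% of all genes, a share of members no larger than that of the background. The 60S and 40S members had alike medians, 0.31 and 0.35. DESeq2 called 7 members, 6 higher (Rpl12, Rpl13a, Rpl22l1, Rpl41, Rps12 and Rps14) and 1 lower (Rps4l), against 15.8% of the genes it tested. Rpl12 is named after its values were seen. The DESeq2 shares here and below are over 24350 genes, without the count filter of edgeR. They include genes with low counts, so they cannot be set directly beside the edgeR shares.

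The called member was Rpl41, which encodes a very short basic peptide at the interface of the subunits. It stood at 141, 151 and 159.9 CPM in WT, at 150.4, 424 and 291 in Mcl1Δhep, at 169, 128 and 143 in Mcl1Δhep Sting1-/- and at 153, 145 and 216 in Sting1-/- livers. Replicate 1 of Mcl1Δhep lay inside the WT range and the other two far above it, so the groups overlapped. The fitted log2 fold change was 0.94 ± 0.30 (SE, n = 3 against 3) with an adjusted p of 0.0459 (edgeR). The fitted change was 0.55 without Mcl1Δhep replicate 2, 1.24 without replicate 1 and -0.14 with the small structured RNA share as a covariate, and of the 12 fits that left out 1 liver each, 1 (without Mcl1Δhep replicate 1) kept the call.

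Rps14, a 40S protein of the platform whose human gene is haploinsufficient in a myelodysplastic syndrome, and Rpl13a, a 60S protein, had the next largest values. Rps14 was at 177, 173 and 185 CPM in WT and at 150.4, 469 and 391 in Mcl1Δhep livers. Rpl13a was at 277, 307 and 313 CPM in WT and at 294, 786 and 515 in Mcl1Δhep livers. Both repeated the pattern of Rpl41, with the first Mcl1Δhep liver at or under WT, and did not pass the threshold, at log2 fold changes of 0.92 ± 0.33 (edgeR, adjusted p = 0.0698) and 0.83 ± 0.29 (adjusted p = 0.062).

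Members whose 3 Mcl1Δhep livers all lay outside the WT range were few. Rpl22l1, Rpl38 and Rps12 were higher without overlap (16.2% of all genes were), and Rpl30, Rpl4 and Rps4l were lower without overlap (17.1% of all genes), Rpl38, Rpl30 and Rpl4 being named here after their values were seen. Rpl4 was at 395, 437 and 475 CPM in WT and 382, 376 and 371 in Mcl1Δhep livers, and Rpl30 at 72.4, 76.7 and 71.9 against 61.4, 69.3 and 50.7. Neither was called, with edgeR adjusted p of 0.294 and 0.143. Rps12 was at 165, 162 and 165 CPM in WT and at 179, 351 and 226 in Mcl1Δhep livers, a log2 fold change of 0.62 ± 0.23 (edgeR, adjusted p = 0.0751).

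Among members with roles outside the bulk of the ribosome, none was called in Mcl1Δhep against WT livers, and the changes are given as fitted log2 values ± SE. The stalk proteins that recruit elongation factors had 0.47 ± 0.24 (Rplp0), 0.32 ± 0.19 (Rplp1) and 0.32 ± 0.18 (Rplp2). Rpsa, which doubles as a laminin-binding protein, had 0.40 ± 0.20, and Rps6, the substrate of the S6 kinases downstream of mTOR, had 0.12 ± 0.17. Rpl5 and Rpl11, which with 5S RNA bind MDM2 and stabilize p53 when ribosome assembly fails, had 0.39 ± 0.25 and 0.57 ± 0.25, and Rpl26, which binds the p53 mRNA, had 0.26 ± 0.20. Rps19, the gene most often mutated in Diamond-Blackfan anaemia, had 0.48 ± 0.23, and Rps27a, whose product is a fusion with ubiquitin, had 0.30 ± 0.19. In all of these Mcl1Δhep replicates 2 and 3 were above every WT liver. Rplp0, for example, was at 367, 377 and 393 CPM in WT and at 316, 677 and 586 in Mcl1Δhep livers, and Rpl11 was at 146, 152 and 161 against 133, 308 and 241.

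Markers of other cells and of cycling differed in the same comparison. Of the marker lists, 4 of 8 macrophage genes were called higher in Mcl1Δhep livers (summed 408 to 640.1 CPM in WT and 671 to 803 in Mcl1Δhep), 4 of 4 tested neutrophil genes (2.85 to 4.59 against 9.55 to 21.9), 2 of 6 tested T and NK cell genes (3.11 to 3.51 against 5.03 to 7.80), 5 of 8 stellate cell and fibroblast genes (447 to 722 against 941 to 1021) and 6 of 6 genes of cycling cells (10.2 to 11.4 against 45.6 to 149). Of 10 hepatocyte genes 2 were called lower. The cycling genes were at 149, 92.4 and 45.6 CPM in Mcl1Δhep replicates 1 to 3, where the members took 1.14, 2.18 and 1.67% of gene counts. No gene was called in the lists for B and plasma cells (6 genes), cholangiocytes (5), endothelium (6) and erythroid cells (5 tested), and the 1 tested skeletal muscle gene was called higher. The part of these cells and of cycling in the ribosomal protein mRNAs was not tested.

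The value of this comparison turned on single livers. Without Mcl1Δhep replicate 1, 51 members were called, all higher, where 16.3% of all genes were called higher, and the median rose to 0.50. Without Mcl1Δhep replicate 2 no member was called (edgeR; 2 at an unadjusted p under 0.05) and the median was 0.11. Without Mcl1Δhep replicates 2 and 3 and Sting1-/- replicate 3 together, the 3 libraries with the highest small structured RNA share, no member was called by edgeR (3.38% of all genes were; 3 members had an unadjusted p under 0.05) and the median was -0.19, a fit in which the remaining Mcl1Δhep liver is assumed to vary like the other groups and which was added after seeing the data. With the small structured RNA share as a covariate the median was -0.23 and no member was called (edgeR, with 4 at an unadjusted p under 0.05). That share was 0.283 to 2.37% in Mcl1Δhep and 0.172 to 0.369% in WT livers. The covariate is thus partly tied to the genotype here, and its fit does not decide the direction.

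**Figure D3:**
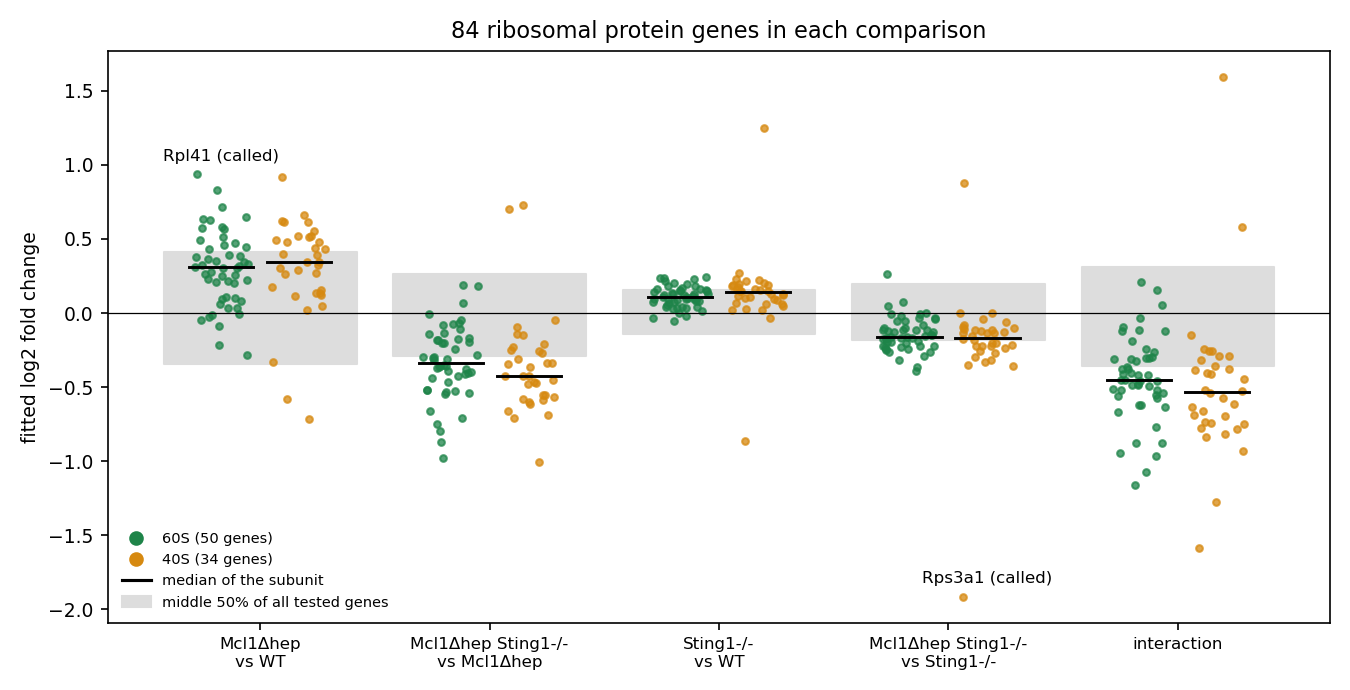
Fitted log2 fold change of the 84 members (points, 60S green and 40S orange, spread sideways at random) in the 4 comparisons and the interaction, with a line at the median of each subunit and a grey band from the lower to the upper quartile of all 15070 tested genes. The medians of all members are 0.32, -0.36, 0.12, -0.16 and -0.46 from left to right, and the called members are Rpl41 and Rps3a1.

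The comparison of Mcl1Δhep Sting1-/- with Mcl1Δhep livers asked what loss of STING changes in the livers that lack Mcl1. It shares the Mcl1Δhep libraries with the comparison above. Of 84 members 79 had a negative value, with a median of -0.36, and 0 were called by edgeR (0% of all genes were), with 23 at an unadjusted p under 0.05 (20.6% of all genes). DESeq2 called 2, Rpl41 and Rps14, both lower (2.80% of the genes it tested). Non-overlapping groups were found for Rpl4 and Rps4l, higher in Mcl1Δhep Sting1-/- livers (8.97% of all genes), and for no member in the other direction (9.28%).

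The largest falls were fitted for the same members that were high in Mcl1Δhep replicates 2 and 3. Rps14 was at 173, 154 and 176 CPM in Mcl1Δhep Sting1-/- livers, near the first Mcl1Δhep liver and far under the others, and its log2 value was -1.005 ± 0.33 (edgeR, adjusted p = 0.155). Rpl41 had -0.98 ± 0.30 (adjusted p = 0.144). Rpl13a, at 303, 267 and 303 CPM in Mcl1Δhep Sting1-/- livers, had -0.87 ± 0.29 (adjusted p = 0.155). Without Mcl1Δhep replicate 1, 48 members were called, all lower (9.08% of all genes were called lower). Without Mcl1Δhep replicates 2 and 3 and Sting1-/- replicate 3 together, 0 were called by edgeR (0.00638% of all genes; 0 members at an unadjusted p under 0.05) and the median turned to 0.15.

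In Sting1-/- against WT livers, the loss of STING alone, 79 of 84 members had a positive value with a median of 0.12, and 0 members were called by edgeR (0% of all genes), with 2 at an unadjusted p under 0.05 (5.45% of all genes). Without Sting1-/- replicate 3 the median was 0.03 with 52 positive. With the small structured RNA covariate the median was -0.23, 6 of 84 members were positive and 18 had an unadjusted p under 0.05 (edgeR). That share was 0.506 to 0.897% in Sting1-/- and 0.172 to 0.369% in WT livers, without overlap. The covariate therefore cannot be told apart from the genotype here, and its fit does not decide the direction. DESeq2 called Rps3a1, higher (0.209% of the genes it tested). The livers were not alike: the members of Sting1-/- replicates 1 and 3 lay mostly above WT and those of replicate 2 mostly below, as the counts per liver above show. Rps3a1 was higher (7.06% of all genes) and Rps4l lower (5.46%) without overlap.

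In Mcl1Δhep Sting1-/- against Sting1-/- livers, loss of Mcl1 in animals without STING, 78 of 84 members had a negative value with a median of -0.16. The test called 1 member, Rps3a1, lower (0.803% of all genes were called and 0.126% were called lower), and 2 members had an unadjusted p under 0.05 (11.3% of all genes). DESeq2 called Rps3a1 lower and Rps4l higher (1.89% of the genes it tested). Rps4l was higher without overlap (11.5% of all genes), and Rps27 and Rps3a1 were lower (10.8%). The median kept its sign with the small structured RNA covariate (-0.050) and without the 3 libraries highest in that share (-0.066), where the median of Mcl1Δhep against WT was negative as well. The interaction, which tests whether the Mcl1 effect differs with STING, had a median of -0.46 over the members, 79 of them negative, and called 0 by edgeR (0% of all genes), with 17 at an unadjusted p under 0.05 (14.4% of all genes). DESeq2 called Rps3a1 and Rps4l (0.698% of the genes it tested). Without Mcl1Δhep replicate 1, edgeR called 28 members in the interaction, 27 of them lower (4.22% of all genes were called lower). The interaction median was 0.13 without the 3 libraries named above and 0.18 with the small structured RNA covariate.

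Rps3a1 encodes the only mouse member of the eS1 family among these genes, a protein near the mRNA exit of the 40S subunit, and it behaved unlike the other members. It lies on the minus strand of chr3:86045244-86050009 (GRCm39). It was at 44.9, 49.0 and 109 CPM in WT, 41.7, 67.7 and 52.6 in Mcl1Δhep, 43.5, 37.3 and 47.3 in Mcl1Δhep Sting1-/- and 191, 165 and 126 in Sting1-/- livers. Every Sting1-/- liver lay above every other liver, while the Mcl1Δhep Sting1-/- livers, which carry the same Sting1 label, ranged with the WT and Mcl1Δhep livers and had the lowest mean.

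The fitted log2 values were 1.25 ± 0.32 for Sting1-/- against WT (edgeR, adjusted p = 0.643), -1.91 ± 0.32 for Mcl1Δhep Sting1-/- against Sting1-/- (adjusted p = 0.0293), -1.59 ± 0.44 for the interaction (adjusted p = 0.255), and -0.33 ± 0.31 for Mcl1Δhep against WT (adjusted p = 0.469). The call against Sting1-/- livers was lost, with the value between -2.06 and -1.77, when Mcl1Δhep Sting1-/- replicate 1 or 2 or any Sting1-/- replicate was left out. WT replicate 3, at 109 CPM, stood between the genotypes, and without it the value for Sting1-/- against WT was 1.78 (adjusted p = 0.0584).

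The region around Rps3a1 was looked at after its values were seen. Of 10 other tested genes within 1 Mb, 0 were called in the comparisons of Sting1-/- with WT and of Mcl1Δhep Sting1-/- with Sting1-/- livers (edgeR; 0 at an unadjusted p under 0.05). Cd1d2, which encodes an antigen-presenting molecule for lipids and lies 0.844 Mb away, was at 22.8, 16.5 and 7.56 CPM in WT, 14.9, 15.5 and 21.7 in Mcl1Δhep, 14.3, 19.1 and 20.1 in Mcl1Δhep Sting1-/- and 0.175, 0.212 and 13.6 in Sting1-/- livers. Thus the livers highest in Rps3a1 were lowest in Cd1d2, and WT replicate 3 was the highest WT liver in the one and the lowest in the other. The Mcl1 gene, floxed in 2 of the genotypes, lies 9.52 Mb from Rps3a1 on the same chromosome. Rps3a1 has 7 annotated pseudogene copies, and 0 of them are in the count tables. Its matches to pseudogenes, with any shorter ones included, had 93.4 to 99.5% identity. Whether the livers differ in the DNA of this stretch, or in the reads assigned to the copies, was not tested.

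**Figure D4:**
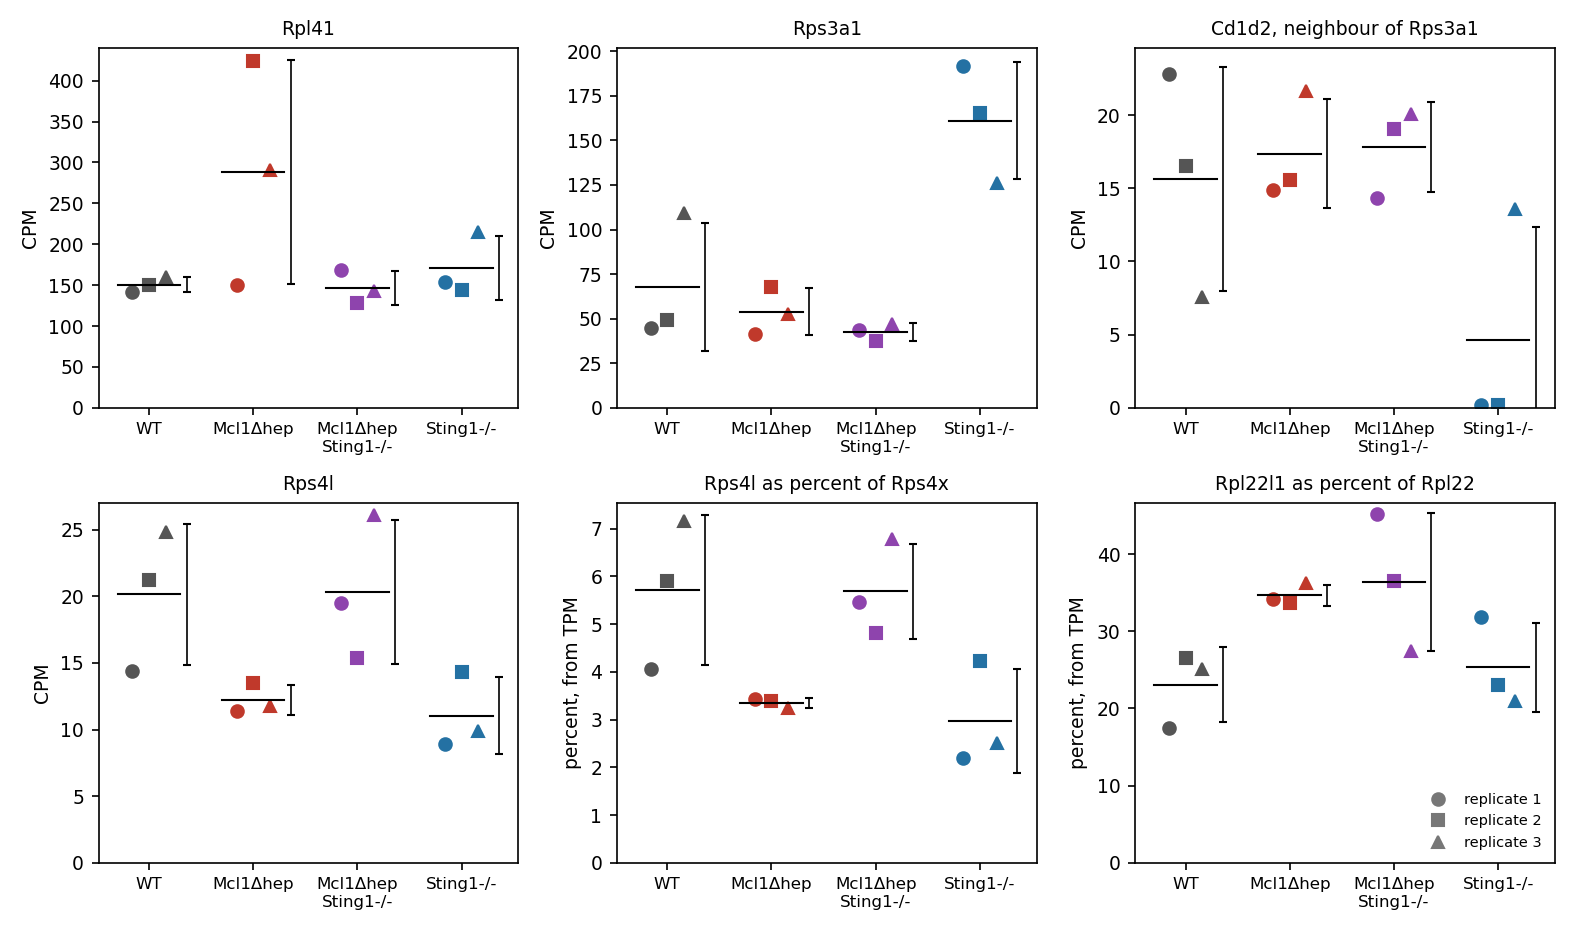
Levels in CPM of Rpl41, Rps3a1, Cd1d2 and Rps4l, and ratios in percent of Rps4l to Rps4x and of Rpl22l1 to Rpl22 from TPM, for each of the 12 livers, with a line at the mean and a bar of 1 SD. Rps3a1 is above 100 CPM in the 3 Sting1-/- livers and WT replicate 3, and Cd1d2 is near 0 in Sting1-/- replicates 1 and 2.

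Several members have a paralog or a retrogene, and the ratio of each pair was read as a percent of TPM. Whether the product of any of these genes replaces the other in the ribosome was not tested. Rpl22l1 is the best studied of these, being repressed by Rpl22 through its mRNA. Rpl22l1 stood at 17.5, 26.6 and 25.1% of Rpl22 in WT, 34.1, 33.6 and 36.2% in Mcl1Δhep, 45.2, 36.6 and 27.4% in Mcl1Δhep Sting1-/- and 31.8, 23.1 and 21.0% in Sting1-/- livers. All livers without Mcl1 were above all WT livers, at the closest by 27.4 against 26.6%. Sting1-/- replicate 1, with Mcl1 intact, was at 31.8% and so overlapped them. Rpl22 itself differed by 0.03 ± 0.18 on the log2 scale in Mcl1Δhep against WT livers (edgeR, adjusted p = 0.916), and Rpl22l1, at 15.4, 20.8 and 19.9 CPM in WT and 22.3, 35.7 and 28.6 in Mcl1Δhep livers, by 0.63 ± 0.22 (edgeR, adjusted p = 0.0579). Its first Mcl1Δhep liver was above WT, unlike that of Rpl41, Rps14 and Rpl13a.

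Rps4l, an autosomal gene close to the X-linked Rps4x, varied in another way. It was at 14.4, 21.2 and 24.8 CPM in WT, 11.4, 13.5 and 11.8 in Mcl1Δhep, 19.5, 15.4 and 26.1 in Mcl1Δhep Sting1-/- and 8.90, 14.3 and 9.92 in Sting1-/- livers. Both single genotypes were lower than WT without overlap, and the double genotype was higher than both without overlap. The fitted log2 values were -0.72 ± 0.25 for Mcl1Δhep against WT (edgeR, adjusted p = 0.0575), -0.86 ± 0.25 for Sting1-/- against WT (adjusted p = 0.671) and 1.59 ± 0.35 for the interaction (adjusted p = 0.216), the largest interaction of any member.

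Rps4x itself was at 264, 267 and 257 CPM in WT and 247, 296 and 269.6 in Mcl1Δhep livers, a log2 value of 0.04 ± 0.14. As a percent of Rps4x, Rps4l had a mean of 5.71 ± 1.57 (SD, n = 3) in WT, 3.35 ± 0.10 in Mcl1Δhep, 5.69 ± 0.995 in Mcl1Δhep Sting1-/- and 2.97 ± 1.09 in Sting1-/- livers. Reads that match both genes could have been left out or shared by the counting, so the ratio is uncertain in level.

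Rps27l, a p53 target, was at 66.4% ± 7.97 of Rps27 in WT, 64.3% ± 13.8 in Mcl1Δhep, 80.6% ± 5.03 in Mcl1Δhep Sting1-/- and 63.2% ± 3.14 in Sting1-/- livers, with log2 values in Mcl1Δhep against WT of 0.29 ± 0.20 for Rps27l and 0.43 ± 0.28 for Rps27. Rpl7l1 was at 19.8% ± 1.55 of Rpl7 in WT, 24.0% ± 1.87 in Mcl1Δhep, 20.6% ± 0.882 in Mcl1Δhep Sting1-/- and 18.2% ± 1.19 in Sting1-/- livers, with log2 values in Mcl1Δhep against WT of 0.38 ± 0.17 and 0.11 ± 0.18. Rpl36al was at 15.2% ± 1.60 of Rpl36a in WT, 16.1% ± 1.22 in Mcl1Δhep, 14.6% ± 1.27 in Mcl1Δhep Sting1-/- and 13.4% ± 1.49 in Sting1-/- livers, with log2 values in Mcl1Δhep against WT of 0.31 ± 0.21 and 0.22 ± 0.17. Rps23rg1, a retrogene with 42 to 165 counts a library, was at 1.49% ± 0.433 of Rps23 in WT, 0.894% ± 0.468 in Mcl1Δhep, 1.72% ± 0.784 in Mcl1Δhep Sting1-/- and 1.53% ± 0.687 in Sting1-/- livers, and Rpl35rt, with 3 to 20 counts a library, was at 1.83 to 2.20% of Rpl35 in the means of the 4 genotypes. None of the members Rps27l, Rps27, Rpl7l1, Rpl7, Rpl36al and Rpl36a was called by edgeR, the lowest adjusted p being 0.122, for Rpl7l1.

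The tissue-restricted paralogs stayed near 0. Rpl10l, the testis copy of Rpl10, had 0 counts in all 12 libraries, and Rpl39l at most 4. Rpl3l, the muscle copy of Rpl3, had 156 counts in Mcl1Δhep replicate 3, the liver with skeletal muscle transcripts, and at most 5 in any other. Rps27rt and Rpl27rt had at most 2. The standard genes of these pairs were all well detected, and their log2 values in Mcl1Δhep against WT were 0.09 ± 0.17 for Rpl10, 0.30 ± 0.18 for Rpl39 and 0.33 ± 0.16 for Rpl3.

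The members were next compared between livers of the same genotype, where no gene deletion differs. Each difference was taken towards a liver that was high within its genotype in the share of counts on the members. That most members were higher therefore follows in part from this choice, and the matching share of all genes was not taken. From Mcl1Δhep replicate 1 to replicate 2, 82 of 84 members were higher, by a median of 0.82 on the log2 scale and by 1.64 for Rps14. Sting1-/- replicate 3 was higher than the mean of its other two livers for 77 members, by a median of 0.26. These differences, which share no library, ranked the members alike, with a Spearman correlation of 0.75 over the 84 genes (0.80 for Mcl1Δhep replicate 3). Rps14, Rpl41 and Rpl13a were high in both and Rpl4 and Rpl30 low.

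The Mcl1Δhep Sting1-/- genotype did not share that order. Its replicate 3, the liver of that genotype with the highest share of counts on the members, was higher than the mean of the others for 80 members. The median difference was 0.20, and the rank correlation with the Mcl1Δhep difference was -0.06. The genes are not independent replicates, since they share libraries and differ in level, so the correlations are given as descriptions.

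**Figure D5:**
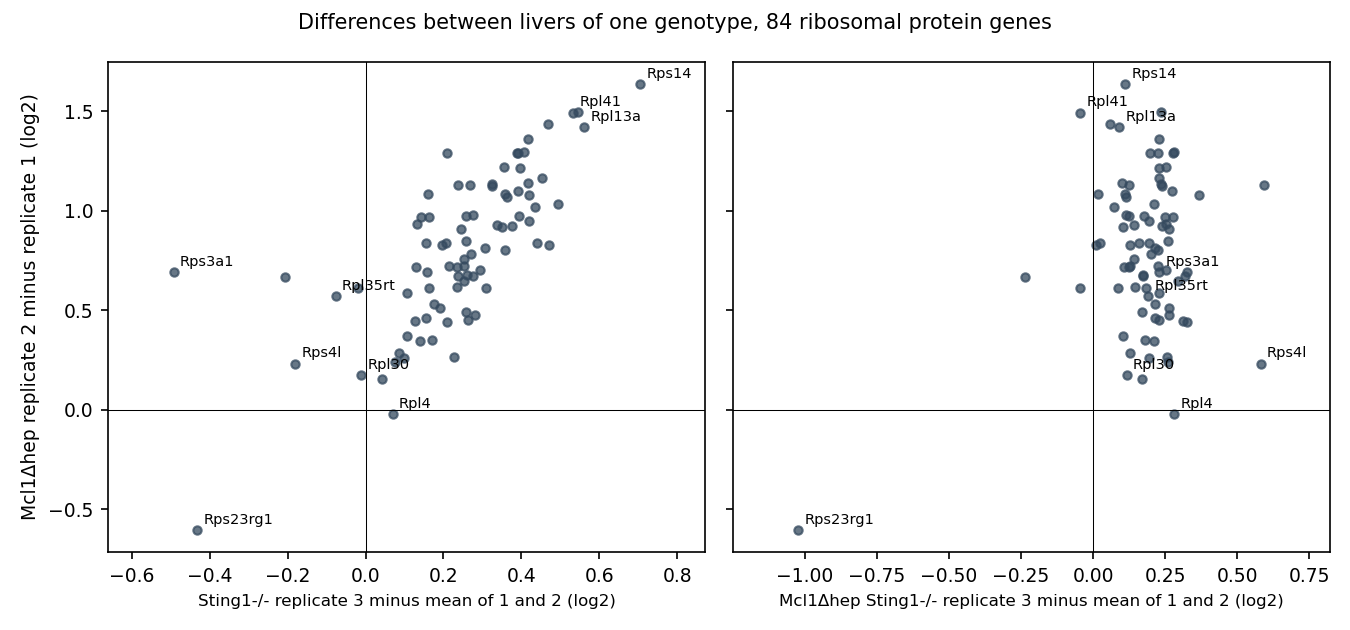
Difference in log2 CPM between Mcl1Δhep replicates 2 and 1 for each of the 84 members, against the difference of Sting1-/- replicate 3 from the mean of replicates 1 and 2 (left) and the same in Mcl1Δhep Sting1-/- livers (right). The points rise together on the left (Spearman 0.75) and not on the right (-0.06).

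Features of the genes that the choice of members did not use did not order the changes strongly. Across the 84 members the Spearman correlation of the change in Mcl1Δhep against WT was 0.25 with the GC content of the canonical transcript, 0.17 with mean TPM, -0.16 with the length of that transcript, 0.06 with its number of exons and -0.07 with coding length. The bounds of 30 members hold 59 annotated snoRNAs on the same strand, 40 of them over an annotated exon of some host transcript, which guide the modification of ribosomal RNA, and these hosts had a median change of 0.27 against 0.35 in the 54 members without. The counts on the 55 of these snoRNAs in the count tables equalled 0.0854 to 0.514% of the counts on the members. Ribosomal protein genes are known for processed pseudogenes, and 64 members had 5 or more annotated copies over at least 50% of the coding sequence, up to 88. Their median change was 0.32 against 0.35 in the 20 with fewer. Reads lost to such copies are uncertain for most members.

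The rest of the translation machinery was described by lists of genes. Fau and Rack1, ribosomal proteins whose symbols the name rule does not take, were not called by edgeR in any of the 5 comparisons, and their fitted values in Mcl1Δhep against WT livers were 0.43 ± 0.21 and 0.66 ± 0.26. Rack1, a 40S scaffold for signalling kinases, was at 299, 314 and 332 CPM in WT and at 284, 667 and 546 in Mcl1Δhep livers, high in the same livers as the members. The shares of all genes called in Mcl1Δhep against WT livers, 10.8% higher and 9.43% lower, stand beside the counts that follow. Of 78 mitochondrial ribosomal proteins, which serve the separate ribosome of the organelle, 3 were called higher and 1 lower, fewer than those shares give, with a median of 0.17. Mrpl54 had a log2 value of 0.84 ± 0.23 (edgeR, adjusted p = 0.0251), Mrps25 had 0.57 ± 0.17 (adjusted p = 0.0375), and Mrpl46 had 0.65 ± 0.20 (adjusted p = 0.0398). The lower gene, Mrps5, named because it was the only one, had -0.39 ± 0.12 (adjusted p = 0.0444).

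Of 37 initiation factors 2 were called higher and 2 lower, again fewer than the shares over all genes, with a median of 0.07. Eif6, which keeps free 60S subunits from joining 40S, rose by 0.98 ± 0.22 on the log2 scale (edgeR, adjusted p = 0.0115), and the mRNA recruitment factors Eif4b and Eif4g1 had -0.76 ± 0.18 (adjusted p = 0.0136) and -0.65 ± 0.19 (adjusted p = 0.0345). The other gene called higher, the scanning factor Eif1a, had 0.71 ± 0.23 (adjusted p = 0.049). Of 9 elongation factors and regulators 1 was called, the translocase Eef2, at -0.65 ± 0.18 (adjusted p = 0.03), against a median of 0.16. Of 43 ribosome biogenesis factors 2 were called higher, also under the share over all genes, with a median of 0.07: Polr1e, a subunit of RNA polymerase I, at 0.86 ± 0.25 (adjusted p = 0.03), and Nhp2, a box H/ACA snoRNP protein, at 0.76 ± 0.23 (adjusted p = 0.037).

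Of 16 genes through which mTOR and MYC control ribosomal protein mRNAs, 6 were called lower (9.43% of all genes were) and 0 higher, with a median of -0.50. Among them were Rptor, the scaffold of mTOR complex 1, at -0.57 ± 0.13 (edgeR, adjusted p = 0.0131), the translational repressor Eif4ebp2 at -0.67 ± 0.18 (adjusted p = 0.0256) and Tsc2, an inhibitor of the complex, at -0.55 ± 0.16 (adjusted p = 0.0335). These members act in opposite directions in the pathway. Of 7 noncoding snoRNA host RNAs whose transcripts carry a TOP tract, Snhg1 was called higher, at 2.44 ± 0.68 (adjusted p = 0.028), and Gas5 lower, at -0.66 ± 0.16 (adjusted p = 0.0165), with a median of -0.05. In the other 3 comparisons and the interaction 1 gene of these lists was called, Eef2k, the kinase that inhibits Eef2, lower in Mcl1Δhep Sting1-/- than in Sting1-/- livers at -1.16 ± 0.23 (adjusted p = 0.0448).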

How the data were processed

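Total RNA of 12 mouse livers was sequenced by the study. The values deposited by the authors are raw read counts per gene and library, unnormalized. The submitters' processing notes name STAR, featureCounts and the build GRCm39, without versions. How reads that match several genes, or the strand, were treated is not given in the sources used here, so genes with near-identical or overlapping copies are uncertain. GENCODE vM39 named 39533 of 40551 identifiers. Genes were tested with edgeR 4.0.16 (R 4.3.3): TMM scaling, filterByExpr by genotype (15070 genes), 1 model over all 12 libraries with a mean per genotype, quasi-likelihood tests, prior count 2, and Benjamini-Hochberg adjustment at 0.05 over all genes tested. Libraries held 28826367 to 45266387 counts. The scripts were tested on simulated data. The SE of a fitted log2 value was taken as its absolute size divided by the square root of its quasi-likelihood F statistic. It thus rests on the fit over all 12 libraries and not only on the livers compared. TPM used the canonical transcript length. Pseudogene copies were found with BLAST+ 2.17.0 at 90% identity. DESeq2 1.42.0 was an alternative, as were other scalings, no filter, fits of the 2 genotypes alone, a replicate block, Y-linked or small structured RNA covariates, and each library left out.

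The members, gene lists, marker lists and tests were chosen with earlier results of these data known. Named members were the 6 highest and 4 lowest by mean TPM, in each comparison the 5 called members with the largest rise and fall (or, with none called, the 3 with the lowest unadjusted p), a fixed set of members with roles outside the ribosome or with a paralog, and in each other list up to 3 called genes with the lowest adjusted p. Results of a few single genes are not reported here. Mcl1 and Sting1 were read as a check of the labels.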

Additional observations from a re-analysis of the deposited data

Results flagged for a closer look

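Rps4l stood out because its livers moved in opposite directions with and without STING. Every Mcl1Δhep liver (11.4 to 13.5 CPM) lay below every WT liver (14.4 to 24.8), as in 17.1% of all genes. Every Mcl1Δhep Sting1-/- liver (15.4 to 26.1) lay above every Sting1-/- liver (8.90 to 14.3), as in 11.5% of all genes. WT replicate 1, the lowest WT liver at 14.4 CPM, held no Y-linked counts, and WT replicates 2 and 3 did. The highest liver, Mcl1Δhep Sting1-/- replicate 3 at 26.1 CPM, held none either. The interaction was 1.59 ± 0.35 on the log2 scale and was not called by edgeR (adjusted p = 0.216), and DESeq2 called it (adjusted p = 0.00564). Leaving out 1 liver at a time, the interaction of Rps4l ran from 1.38 to 1.83. It was called by edgeR without WT replicate 1 (1.79, adjusted p = 0.0413), a fit that called 88 of 15368 genes. It was also called by edgeR without Mcl1Δhep replicate 1 (1.55, adjusted p = 0.0325), where 1574 of 15357 genes were called. With the Y-linked covariate no member was called in the interaction, and every member, Rps4l included, had a value below 1.38. The falls of Rps4l in Mcl1Δhep and in Sting1-/- livers against WT were also smaller in that fit. The part of sex in Rps4l was not tested beyond it.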

How the results depend on the processing

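The number of members called (edgeR, of 84) and their median log2 change depended on few livers. For Mcl1Δhep against WT, DESeq2 and upper-quartile scaling called 7 each, while fits of the 2 genotypes alone, with a replicate block, with the small structured RNA covariate and without the 3 libraries highest in that share called 0. For the other comparisons DESeq2 called 2 (Mcl1Δhep Sting1-/- against Mcl1Δhep), 1 (Sting1-/- against WT), 2 (Mcl1Δhep Sting1-/- against Sting1-/-) and 2 (interaction). Without the 3 libraries edgeR called 0 in Mcl1Δhep Sting1-/- against Sting1-/-, against 1 with all livers. Medians with the covariate were -0.23 (Mcl1Δhep against WT), -0.063 (Mcl1Δhep Sting1-/- against Mcl1Δhep), -0.23 (Sting1-/- against WT), -0.050 (Mcl1Δhep Sting1-/- against Sting1-/-) and 0.18 (interaction). Without the 3 libraries, an alternative chosen after seeing the data, they were -0.19, 0.15, 0.03, -0.066 and 0.13 in the same order. The cause was not tested. Upper-quartile factors brought the median of all genes in Mcl1Δhep against WT from -0.0049 to 0.13. The Y-linked covariate, by which the genes called in Mcl1Δhep against WT went from 3050 to 1514, gave 1 call there, of Rpl22l1 (0.88), as did leaving out Sting1-/- replicate 1 (0.62), in place of Rpl41.

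Same-numbered livers were no pairs in the labels, and the correlation of their deviations from the group means ran from -0.54 to 0.25. With the number as a replicate block, 0, 0, 0, 1 and 0 members were called in the 4 comparisons and the interaction, against 1, 0, 0, 1 and 0 without it.

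Leaving out 1 liver at a time, the calls ranged from 0 to 51 (Mcl1Δhep against WT), from 0 to 48 (Mcl1Δhep Sting1-/- against Mcl1Δhep), from 0 to 1 (Mcl1Δhep Sting1-/- against Sting1-/-) and from 0 to 28 (interaction), and stayed at 0 for Sting1-/- against WT. The call without WT replicate 1 in Mcl1Δhep against WT was Rps4l, lower at -0.91. The medians ranged from 0.11 to 0.50, from -0.53 to -0.15, from 0.03 to 0.22 (Sting1-/- against WT), from -0.27 to -0.07 (Mcl1Δhep Sting1-/- against Sting1-/-) and from -0.65 to -0.27 (interaction), so no median changed sign. The mean share of counts ranged from 1.13 to 1.15% in WT, from 1.41 to 1.93% in Mcl1Δhep, from 1.17 to 1.23% in Mcl1Δhep Sting1-/- and from 1.15 to 1.36% in Sting1-/- livers.

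Named members turned sign in Mcl1Δhep against WT with the small structured RNA covariate, and without the 3 libraries, as follows: Rplp0 -0.30 and -0.26, Rplp1 -0.18 and -0.17, Rplp2 -0.050 and -0.064, Rpsa -0.12 and -0.054, Rps6 -0.31 and -0.28, Rpl5 -0.38 and -0.31, Rpl11 -0.26 and -0.20, Rps19 -0.20 and -0.11, Rps27a -0.20 and -0.15, Rps27 -0.57 and -0.50, Rps27l -0.33 and -0.24, Rpl22 -0.33 and -0.32, Rpl39 -0.049 and -0.061, Rpl7 -0.26 and -0.26, Rpl3 -0.032 and -0.016, Rpl10 -0.17 and -0.21, Rps4x -0.088 and -0.084, Rpl36a -0.22 and -0.19, Rpl36al -0.29 and -0.22, and Rpl26 -0.25 and -0.22. With the covariate alone Rpl41 turned too (-0.14, and 0.12 in the interaction), and without the 3 libraries Rps14 in Mcl1Δhep Sting1-/- against Mcl1Δhep (0.16). The covariate is partly tied to the Mcl1Δhep genotype, and the fit without the 3 libraries rests on the remaining Mcl1Δhep liver. These turns of sign therefore do not decide the direction. Rpl22 was -0.085 with the Y-linked covariate. Leaving out 1 liver, the values of Rps6 ranged from -0.039 to 0.28, of Rpl22 from -0.18 to 0.18, of Rpl7 from -0.047 to 0.27 and of Rps4x from -0.024 to 0.10, and no other named member turned sign.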
